A study of Mus musculus with 26 samples.

Results

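The 10 genes described here encode the transcription factors that hold mouse embryonic stem (ES) cells in naive pluripotency: Pou5f1, Sox2, Nanog, Klf2, Klf4, Klf5, Esrrb, Tfcp2l1, Tbx3 and Prdm14. They were taken by symbol from a gene expression table of 24409 genes, in which each symbol had 1 row, and all 10 passed the filter on low values that left 14612 genes for testing. The study derived ES cells with and without ZFP57, a KRAB zinc finger protein that keeps DNA methylation and H3K9me3 at imprinting control regions, and measured RNA beside ZFP57, KAP1 and H3K9me3 occupancy in 26 samples. The RNA samples were 3 wild-type (WT) and 2 ZFP57 KO libraries from male C57BL/6J ES cells. Both genotypes were derived from the inner cell mass of embryos that were collected as morulae and cultured for 2 days, and were grown in N2B27 with LIF and 2i (PD0325901, an inhibitor of the ERK pathway, and CHIR99021, an inhibitor of GSK3), for at most 15 passages that were matched between WT and KO. The KO cells were zygotic mutants, homozygous for a disruption of Zfp57 coding exons, so the oocyte could still supply ZFP57 to the embryo they came from. The question put to these genes was whether their RNA level differed between KO and WT cells in this medium.

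In naive ES cells the core trio Pou5f1, Sox2 and Nanog bind together at enhancers, and an outer ring of factors holds the state and can partly replace one another. LIF acts through STAT3 on Klf4 and Tfcp2l1. GSK3 inhibition stabilises β-catenin, which lifts TCF7L1 repression from genes such as Esrrb, Tfcp2l1 and Klf2. Inhibition of ERK signalling removes a drive towards differentiation and favours Nanog and Prdm14, and Prdm14 in turn represses FGF receptor and DNA methyltransferase genes. With 2i and LIF present, all of these inputs are supplied from outside.

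Levels are in FPKM (fragments per kilobase of transcript, scaled to the mapped fragments of each library), which corrects for gene length. Fold changes are KO minus WT on the log2(FPKM + 0.1) scale, with limma's standard error (SE) and a Benjamini-Hochberg adjusted p over all 14612 genes; a gene was called at an adjusted p under 0.05. Zfp57 itself read 75.94, 72.34 and 70.55 FPKM in WT and only 19 and 21.62 FPKM in KO cells, its log2 fold change being -1.84 (SE 0.064, limma adjusted p = 0.0002344). RNA of the targeted gene was thus reduced in both KO libraries but not absent. Depth, inferred from the step between low FPKM values of microRNA genes, was 50900000 to 58900000 fragments per library. At that depth and with RefSeq exon lengths each factor rested on at least about 1366 fragments per library and carried a counting error of at most 2.7%. The 5 ES cell markers Zfp42, Dppa5a, Tdgf1, Utf1 and Fbxo15 summed to 593 to 633 FPKM in WT and 570 to 589 FPKM in KO; Utf1 rose by 0.51 and Fbxo15 fell by 0.45 on the log2 scale, and the other 3 were not called. Summed levels over the whole marker lists of other cell types were low in WT and KO: 0.64 to 0.7 and 0.9 to 1.36 FPKM for primitive endoderm, 0.82 to 1.33 and 2.99 to 3.36 FPKM for trophoblast, 0.75 to 0.89 and 1.37 to 1.89 FPKM for neuroectoderm, 1.5 to 1.76 and 1.84 to 2.7 FPKM for mesendoderm. Feeder fibroblast markers summed to 0.34 to 0.36 FPKM in WT and 0.16 to 0.33 FPKM in KO, and 2-cell-like markers to 1.72 to 3.13 and 1.18 to 1.86 FPKM. Germ cell markers summed to 16.0 to 19.3 FPKM in WT and 8.72 to 9 FPKM in KO. Of these lists 1 of 3 tested primitive endoderm, 1 of 4 trophoblast, 1 of 3 neuroectoderm and 1 of 3 mesendoderm markers rose and 3 of 4 germ cell markers fell, while 0 of 5 2-cell-like and 0 of 1 feeder fibroblast markers were called by limma (2 and 0 at an unadjusted p under 0.05); over all tested genes 18.8% rose and 22.3% fell. The part of these cells or genes in the results was not tested.

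Of the 10 factors, 6 rose in ZFP57 KO cells (Klf4, Tfcp2l1, Tbx3, Esrrb, Klf5 and Pou5f1), 2 fell (Prdm14 and Klf2) and 2 were not called (Sox2 and Nanog). Changes were small: the largest, of Klf4, was 1.67-fold in the group means, and none of the 8 called factors reached 2-fold (8.02% of all tested genes were called and did). Over all tested genes 41.1% were called, 18.8% higher and 22.3% lower, so calls were common in this comparison, and among the 3601 genes at least as high as Prdm14, the lowest factor, 49.3% were called. The median log2 fold change was 0.32 over the 10 factors and -0.01 over all tested genes. In 9 of the 10 both KO libraries lay beyond all 3 WT libraries, as they did in 63.4% of all tested genes: 6 lay above, against 30.3%, and 3 below, against 33.1%. Without KO 2, 6 factors were called, 5 higher and 1 lower, and 28.3% of all genes, 12.4% higher and 15.9% lower. The labels number the libraries but do not say whether a number is a separate embryo, line or culture, so the p-values measure the spread between these libraries.

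**Figure D1:**
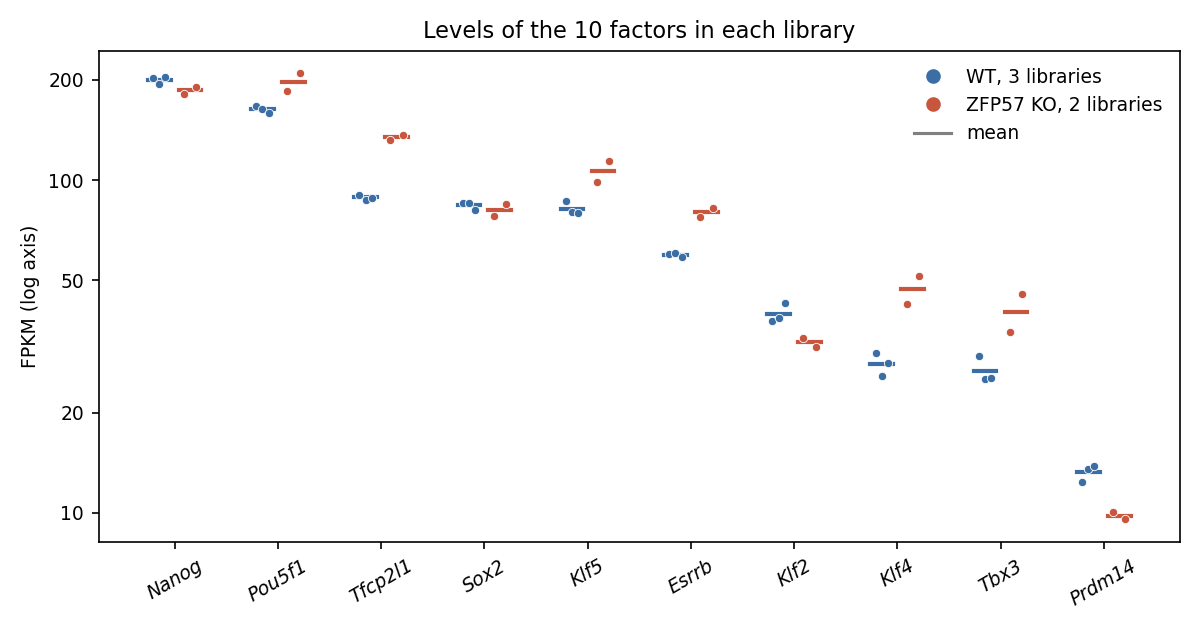
Level of each factor in FPKM (log axis) in 3 WT and 2 ZFP57 KO libraries, ordered by the WT mean; each point is 1 library and each short line a group mean. The KO points lie wholly above the WT points for 6 factors, wholly below them for Nanog, Klf2 and Prdm14, and overlap them for Sox2.

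Within the core trio Pou5f1 was called, and Sox2 and Nanog were not. Pou5f1, which encodes OCT4, was at 166.6, 163.2 and 159 FPKM in WT and at 185.3 and 209.6 FPKM in KO. Both KO libraries were above every WT library, KO 2 by more than KO 1, and the log2 fold change was 0.27 (SE 0.059, limma adjusted p = 0.0127). Sox2, the DNA-binding partner of OCT4, was at 85.04, 85.17 and 81.57 FPKM in WT and at 78.24 and 84.92 FPKM in KO. The groups overlapped, and the log2 fold change of -0.04 (95% interval -0.16 to 0.07, limma adjusted p = 0.517) turned to 0.02 when KO 1 was left out. Sox2 lies within the longer noncoding gene Sox2ot on the same strand, whose own level was 0.57 FPKM in WT and 0.65 FPKM in KO.

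Nanog, the homeodomain factor whose excess allows self-renewal without LIF, was at 202.5, 193.9 and 204 FPKM in WT and at 181.4 and 190.6 FPKM in KO. Both KO libraries were below every WT library, by a log2 fold change of -0.11 (95% interval -0.21 to -0.00185) that missed the threshold (limma adjusted p = 0.0954). Genes of chromosome 6, on which Nanog lies, had a median log2 fold change of 0.17 over 679 tested genes. Relative to that median Nanog was at -0.27 and called (adjusted p = 0.00252), and it was also called after quantile normalization, at -0.15 (adjusted p = 0.0128). Under the other 13 alternative settings it was not called, and without KO 1 it was at -0.07 (adjusted p = 0.311). On the other chromosomes that carry a factor the median lay between -0.03 and 0.03. Pou5f1 and Nanog have processed pseudogenes elsewhere in the mouse genome, and how the authors assigned reads shared with them is not given in the sources used here.

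The 3 Krüppel-like factors, zinc finger proteins that bind the same CACCC and GC-rich boxes and can stand in for one another in ES cells, split in direction. Klf4 was at 30.14, 25.88 and 28.27 FPKM in WT and at 42.33 and 51.66 FPKM in KO. Its KO libraries stood well clear of WT, with a log2 fold change of 0.74 (SE 0.099, limma adjusted p = 0.00248). Klf5 was at 86.3, 79.97 and 79.71 FPKM in WT and at 98.72 and 114.3 FPKM in KO, again without overlap and highest in KO 2. Its log2 fold change was 0.37 (SE 0.071, limma adjusted p = 0.00846). Klf2 was at 37.8, 38.57 and 42.59 FPKM in WT and at 33.54 and 31.54 FPKM in KO. Both KO libraries were lower than every WT library, and the log2 fold change was -0.28 (SE 0.062, limma adjusted p = 0.0138); without KO 2 the call was lost at -0.24 (adjusted p = 0.0816).

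The ratio of Klf4 to Klf2 shifted by 1.02 on the log2 scale, more than the level of either. Klf4 was at 0.797, 0.671 and 0.664 of Klf2 in WT and at 1.26 and 1.64 of it in KO, so that the order of the pair was turned in both KO libraries. Klf2 made up 24.5 to 28.3% of the FPKM summed over the 3 factors in WT, and 19.2% and 16.0% in KO. The share of Klf4 was 17.9 to 19.5% in WT and 24.2% and 26.2% in KO. Klf5 stayed the most abundant of the 3, with 52.9 to 56.0% in WT and 56.5% and 57.9% in KO, and their sum was 144.4 to 154.2 FPKM in WT and 174.6 and 197.5 FPKM in KO. The ratio of Pou5f1 to Nanog was 0.823, 0.842 and 0.780 in WT and 1.02 and 1.10 in KO, and that of Pou5f1 to Sox2 was 1.96, 1.92 and 1.95 in WT and 2.37 and 2.47 in KO. The ratios were chosen after the levels were seen, and an exact two-sided permutation test of 3 against 2 libraries cannot give less than p = 0.2, which each of them gave.

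**Figure D2:**
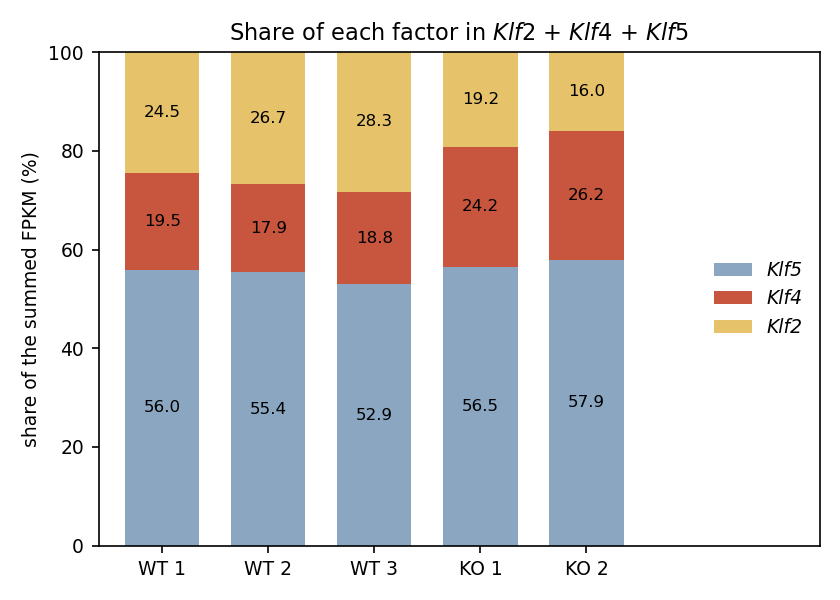
Share (%) of Klf2, Klf4 and Klf5 in the sum of their FPKM in each of the 3 WT and 2 ZFP57 KO libraries, as stacked bars from 0. The Klf2 share is lower in both KO libraries (19.2% and 16.0%) than in any WT library (24.5% or more), and the Klf4 share is higher.

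The orphan nuclear receptor Esrrb and the Grainyhead-like factor Tfcp2l1, both able to sustain self-renewal when overexpressed, rose with little spread between libraries. Esrrb was at 60.04, 60.3 and 58.91 FPKM in WT and at 77.62 and 82.29 FPKM in KO. Its log2 fold change was 0.42 (SE 0.039, limma adjusted p = 0.0008025). Tfcp2l1 was at 90.14, 87.4 and 88.61 FPKM in WT and at 132.2 and 136.9 FPKM in KO. It had the smallest adjusted p of the 10 factors, with a log2 fold change of 0.60 (SE 0.036, limma adjusted p = 0.000365). In both genes the gap between genotypes was wider than the range within either.

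Tbx3, a T-box factor that also takes part in the exit towards primitive endoderm, had the largest SE of the 10. It was at 29.59, 25.19 and 25.39 FPKM in WT and at 34.87 and 45.32 FPKM in KO. The KO libraries were above WT but far apart from each other. The log2 fold change was 0.58 (SE 0.12, limma adjusted p = 0.0128), and without KO 2 it was 0.39 and not called (adjusted p = 0.052). Prdm14, a PR-domain zinc finger protein needed for primordial germ cells and for low DNA methylation in naive cells, was at 12.37, 13.55 and 13.84 FPKM in WT and at 10.07 and 9.56 FPKM in KO. It fell in both KO libraries, by a log2 fold change of -0.43 (SE 0.063, limma adjusted p = 0.00336).

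**Figure D3:**
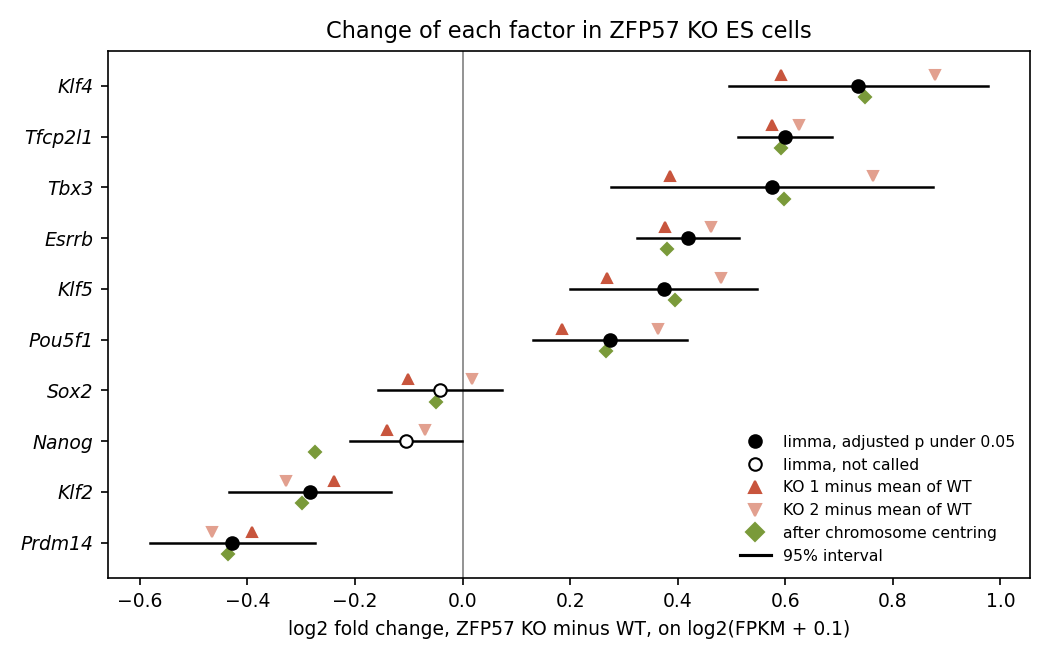
Log2 fold change of each factor, ZFP57 KO minus WT, on log2(FPKM + 0.1), with limma's 95% interval over 3 WT and 2 KO libraries. Filled circles were called at an adjusted p under 0.05; triangles give KO 1 and KO 2 each against the WT mean, and diamonds the value after subtracting each chromosome's median, which moves Nanog from -0.11 to -0.27.

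The order of the levels changed accordingly. In WT cells it ran Nanog, Pou5f1, Tfcp2l1, Sox2, Klf5, Esrrb, Klf2, Klf4, Tbx3 and Prdm14, with mean levels from 200.1 FPKM for Nanog to 13.2 FPKM for Prdm14. The ranges of Sox2 and Klf5 overlapped, and so did those of Klf4 and Tbx3, though Klf4 was above Tbx3 within each library. In KO cells Pou5f1 (mean 197.4 FPKM) and Nanog (186 FPKM) were at the top with overlapping ranges, followed by Tfcp2l1 and Klf5. The ranges of Sox2 and Esrrb overlapped next and those of Klf4 and Tbx3 below them; the first of each of these 3 pairs was the higher within both KO libraries. Klf2 now stood below Klf4 and Tbx3, above Prdm14 only. In WT the 10 factors were all in the upper part of the tested genes, from percentile 77.8 (Prdm14) to percentile 99.1 (Nanog).

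The 2 KO libraries did not deviate equally. KO 2 was farther from the WT mean than KO 1 for all 8 called factors, whether they rose or fell, and nearer to it for Sox2 and Nanog. Among all 6002 called genes KO 2 was the farther in 60.9%. For Tbx3 the 2 libraries were at 0.39 (KO 1) and 0.76 (KO 2) above the WT mean on the log2 scale, for Klf4 at 0.59 and 0.88, and for Tfcp2l1 at 0.57 and 0.63. The direction was shared by both KO libraries in every factor except Sox2.

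The genes of the LIF pathway, which feeds Klf4 and Tfcp2l1, moved in both directions: of 12 tested, 5 rose and 3 fell (66.7% called, against 41.1% of all genes), a median log2 fold change of 0.20. Socs3, a STAT3 target that restrains the pathway, was at 6.15, 5.63 and 5.56 FPKM in WT and at 13.45 and 14.87 FPKM in KO. It more than doubled, with a log2 fold change of 1.28 (SE 0.071, limma adjusted p = 0.0003271). Stat3 itself was at 12.37, 11.96 and 12.31 FPKM in WT and at 14.69 and 14.57 FPKM in KO (log2 fold change 0.26, limma adjusted p = 0.00471). Stat3 and Socs3 lie on chromosome 11, whose 1224 tested genes had a median log2 fold change of -0.47, so both went against their chromosome. The LIF receptor gene Lifr was at 7.2, 7.65 and 7.29 FPKM in WT and at 10.19 and 10.31 FPKM in KO (log2 fold change 0.47, limma adjusted p = 0.00127). Lif fell from a mean of 1.15 FPKM by as much as the median of chromosome 11, on which it also lies (-0.47 for both). Jak2 fell from a mean of 2.08 FPKM, and Pim1, a kinase gene downstream of STAT3, fell by 0.56 on the log2 scale. Without KO 2, 5 of the 12 were called, against 28.3% of all genes in that fit.

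Among the 12 genes of the GSK3 and TCF arm 3 rose and 2 fell (41.7% called, as over all genes), with a median of 0.03. Of the 2 lower genes, Tcf7 lies on chromosome 11 and was at -0.50, near the median of -0.47 there. Tcf7l1, the repressor of naive genes, was at 19.42, 21.57 and 19.45 FPKM in WT and at 17.15 and 18.21 FPKM in KO. Its log2 fold change of -0.19 did not pass (limma adjusted p = 0.0536). It did under 3 of 15 alternative settings, among them chromosome centring, at -0.35 (adjusted p = 0.00758). Lef1, a DNA-binding partner of β-catenin, fell from 5.79, 7.91 and 8.21 FPKM to 2.6 and 1.47 FPKM, a log2 fold change of -1.83 (SE 0.25, limma adjusted p = 0.00273). Ctnnb1, which encodes β-catenin, rose by 0.21 on the log2 scale from a WT mean of 87.4 FPKM.

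The FGF and ERK arm holds the kinase step targeted by the PD0325901 given to both genotypes. Of its 15 genes 6 were higher and 3 lower (60% called, against 41.1% of all genes), with a median of 0.02. Among the 3 lower, Grb2 lies on chromosome 11 and was at -0.53, near the median of -0.47 there. The ERK target Etv4 was at 1.02, 1.1 and 0.61 FPKM in WT and at 7.94 and 8.97 FPKM in KO. The ERK phosphatase gene Dusp6 was at 1.02, 1.06 and 0.95 FPKM in WT and at 3.81 and 4.33 FPKM in KO. The pathway inhibitor Spry4 was near 0 in WT, at 0.09, 0.19 and 0.08 FPKM, and at 2.97 and 2.82 FPKM in KO. The log2 fold changes of these 3 were 3.12, 1.91 and 3.80 (limma adjusted p = 0.0005196, 0.0003271 and 0.0003727), all from low levels. Spry2, at higher levels, rose by 0.42 (limma adjusted p = 0.0375). Etv5, also an ERK target, was not called, at a log2 fold change of -0.07. The ERK target Egr1 was not called either (0.02), but it read at most 0.11 FPKM in any library, close to the filter, so a change could hardly be seen.

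Of 18 other genes of the naive state 3 rose, 6 fell and 9 were not called, with a median of -0.04. The called share was 50.0%, against 41.1% of all genes. Dppa3, a maternal factor that protects DNA methylation in the early embryo, had the largest change. It was at 24.21, 35.55 and 36.97 FPKM in WT and at 9.04 and 4.43 FPKM in KO, a log2 fold change of -2.30 (SE 0.32, limma adjusted p = 0.00266). Zfp42, which encodes REX1, was at 25.7 to 26.4 FPKM in WT and at 26.85 and 27.5 FPKM in KO and was not called (log2 fold change 0.06, limma adjusted p = 0.213). Fgf4, an OCT4 and SOX2 target, was at 60.99, 55.95 and 59.72 FPKM in WT and at 51.49 and 52.38 FPKM in KO. It passed (log2 fold change -0.18, limma adjusted p = 0.0242) but lost the call under 6 of 15 alternative settings. Gbx2, a LIF target that can sustain self-renewal, rose by 0.79 on the log2 scale, and Nr0b1 by 0.26.

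Of 12 genes that encode proteins found with the core factors on chromatin 1 rose and 3 fell. That is 33.3% called, against 41.1% of all genes. Myc rose from 2.02, 1.92 and 1.25 FPKM to 3.49 and 4.33 FPKM (log2 fold change 1.15, limma adjusted p = 0.00787). Of 12 genes of the formative and primed states 2 rose and 4 fell, with a median of -0.22. The called share was 50.0%, against 41.1% of all genes. With the filter at a mean of 1 FPKM, 6 of the list were tested and 3 of these called, against 45.9% of all genes in that fit. The de novo DNA methyltransferase gene Dnmt3a, of the enzyme family that PRDM14 holds down in naive cells, was at 10.42, 9.21 and 10.99 FPKM in WT and at 3.25 and 2.84 FPKM in KO (log2 fold change -1.71, limma adjusted p = 0.0003271). Dnmt3a and Prdm14 were both lower in KO, and Dnmt3b was not called (log2 fold change -0.26, limma adjusted p = 0.139). Of the FGF receptor genes listed, Fgfr1 was higher (0.40) and Fgfr2 lower (-0.72). A link of these changes to Prdm14 was not tested. Fgf5, a marker of the formative epiblast, was called higher at 0.44 and 0.35 FPKM in KO against 0.05 to 0.09 FPKM in WT, and Otx2 was at most 0.17 FPKM in any library.

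Close relatives of the factors were measured in the same table, 21 of 23 above the filter. Of these 7 rose and 1 fell (38.1% called, against 41.1% of all genes). Among 12 other KLF genes tested, 5 were higher and 0 lower, against 18.8% and 22.3% of all genes: Klf3 (12.05 to 12.52 FPKM in WT, 16.24 and 17.64 FPKM in KO), Klf6 (3.14 to 3.46 and 5.23 and 5.5 FPKM), Klf10 (13.32 to 14.89 and 18.95 and 19.25 FPKM), Klf13 (4.88 to 5.12 and 6.69 and 6.87 FPKM) and Klf15 (0.59 to 0.71 and 1.93 and 2.68 FPKM). At limma's unadjusted p under 0.05 the count of lower KLF genes was 1 (Klf11). Their log2 fold changes were 0.46, 0.67, 0.44, 0.42 and 1.65. Klf8, Klf9 and Klf16, at log2 fold changes of 0.04, -0.07 and 0.14, were not called. Of the relatives of Pou5f1 and Sox2, Pou2f1 rose by 0.17 from 9.94 to 10.5 FPKM in WT, Sox15 (chromosome 11) fell by 0.64 on the log2 scale from 7.15 to 8.28 FPKM, which left -0.17 relative to the median of its chromosome, and Sox1 rose from at most 0.1 FPKM to 0.47 and 0.67 FPKM. Ubp1, a relative of Tfcp2l1, was at 18.1 to 18.2 FPKM in WT and at 19.69 and 18.66 FPKM in KO and was not called.

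**Figure D4:**
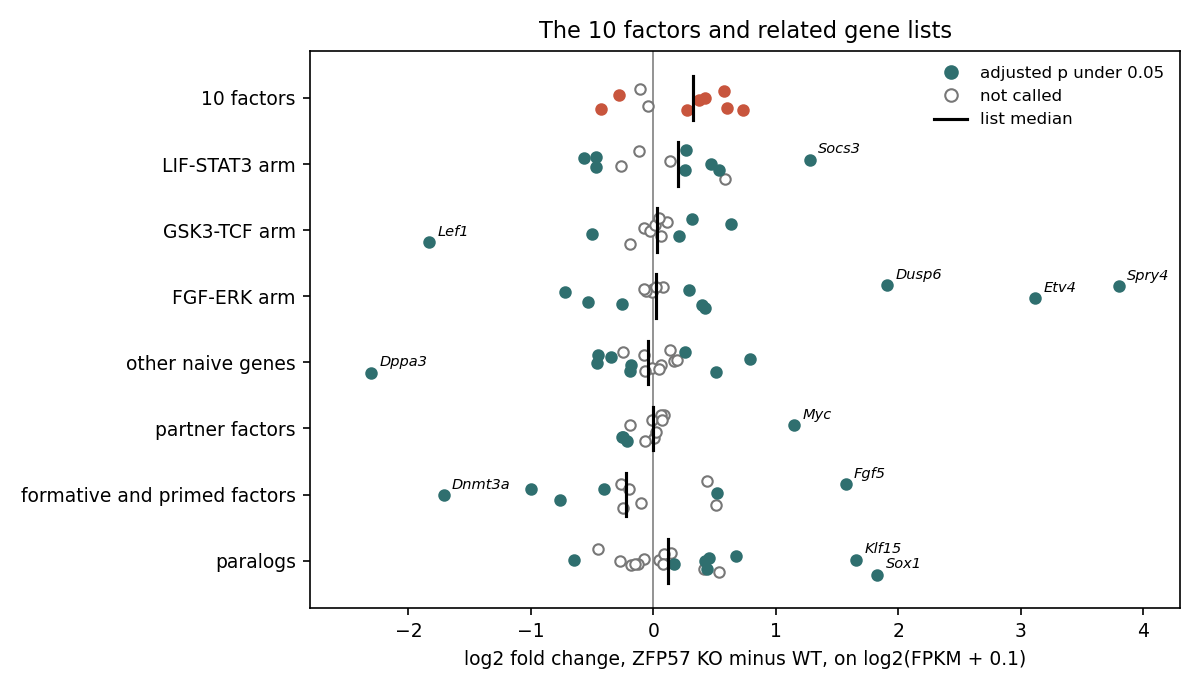
Log2 fold change (ZFP57 KO minus WT, on log2(FPKM + 0.1)) of every tested gene in the 10 factors (red where called) and in 7 related lists (green where called); open circles were not called, bars are list medians, and called genes of at least 2-fold are named. The called factors sit between -0.43 and 0.74, inside the spread of the other lists.

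The ZFP57 binding sites of these cells, 1423 peaks in C57BL/6J ES cells, were set against the factors in mm10 (GRCm38) coordinates. None of the 10 genes had a peak within 20, 50 or 100 kb, against 4.88%, 9.21% and 15.9% of the 14565 tested genes with a position. The nearest peaks lay 142187 bp upstream of Pou5f1 and 188729 bp downstream of Sox2, followed by Klf5 at 270076 bp and Klf4 at 516133 bp. The remaining 6 were between 835631 bp (Prdm14) and 4256632 bp (Tbx3) away. The median distance was 853380 bp for the factors and 538852 bp over the tested genes, and 2 of 10 factors and 26.4% of tested genes had a peak within 200 kb. With no factor near a peak, the called changes could not be compared between bound and unbound members.

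ZFP57 binds the methylated hexanucleotide TGCCGC. It was found, on either strand, in 92.0% of the 1423 peaks and in the peak nearest to 7 of the 10 factors. The 2 closest peaks are shown because they are the only ones within 200 kb of a factor, on the plus strand with the hexanucleotide (TGCCGC, or GCGGCA for the other strand) in capitals. The peak near Pou5f1 is 393 bp wide and intergenic, of which the first 300 bp (chr17:35363453-35363752) are given. The peak near Sox2 (chr3:34841190-34841371) is 182 bp wide and lies in the gene Gm21388.
peak nearest to Pou5f1: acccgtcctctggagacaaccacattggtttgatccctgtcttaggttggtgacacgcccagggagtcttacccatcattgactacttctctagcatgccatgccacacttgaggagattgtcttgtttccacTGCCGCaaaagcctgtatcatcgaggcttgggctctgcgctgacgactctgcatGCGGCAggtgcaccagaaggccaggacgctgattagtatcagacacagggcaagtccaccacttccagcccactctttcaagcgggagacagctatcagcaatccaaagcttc
peak nearest to Sox2: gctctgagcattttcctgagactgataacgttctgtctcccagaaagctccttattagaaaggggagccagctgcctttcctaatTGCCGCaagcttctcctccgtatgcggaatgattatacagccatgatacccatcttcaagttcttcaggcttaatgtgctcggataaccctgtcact
The peak near Pou5f1 holds 2 copies and was also in the list of 743 peaks from hybrid ES cells; the one near Sox2 holds 1 copy and was not in that list.

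**Figure D5:**
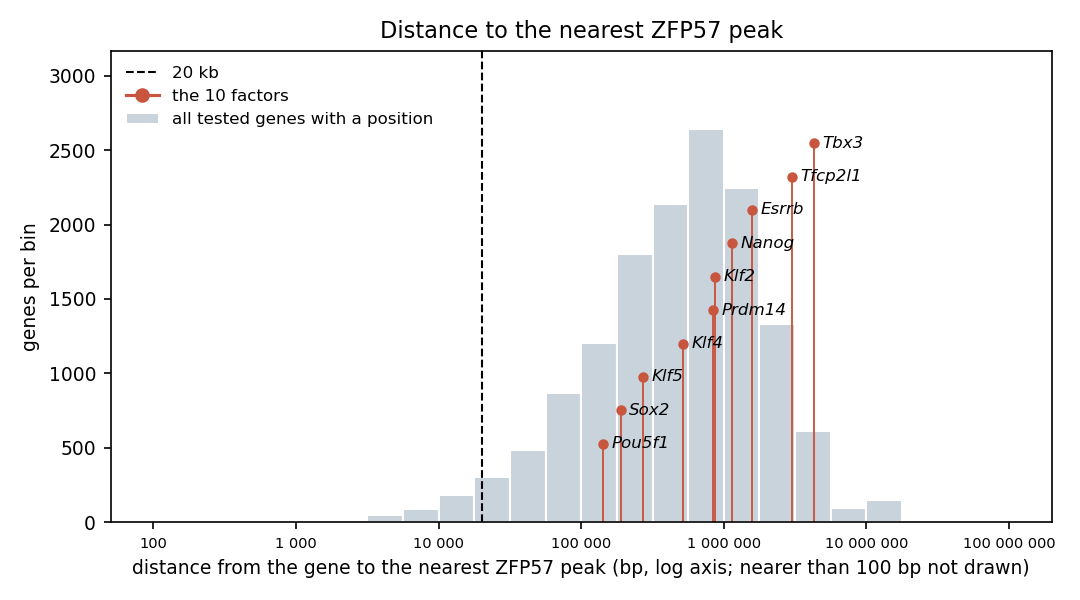
Distance in bp (log axis) from each gene to its nearest ZFP57 peak; grey bars count the tested genes with a position per bin, red points mark the 10 factors (their height only spaces the names) and the dashed line is 20 kb. All 10 factors lie at least 142187 bp from a peak.

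The same hexanucleotide was looked for in RefSeq promoter windows (GRCm38.p6, 250 bases before to 50 bases after a start), which covered 7 of the 10 factors. It occurred in windows of Sox2, Nanog, Klf2 and Tfcp2l1 and not in those of Pou5f1, Klf4 and Esrrb. Of all 32851 windows 11.6% held it, and of the 9690 windows with a GC content of at least 60%, 26.0% did. The Sox2, Nanog and Klf2 stretches are printed, 5′ to 3′ on the plus strand, because they hold the motif of ZFP57 without a ZFP57 peak; in Tfcp2l1 it begins 43 bases after the start.
Sox2 (chr3:34649745-34649994): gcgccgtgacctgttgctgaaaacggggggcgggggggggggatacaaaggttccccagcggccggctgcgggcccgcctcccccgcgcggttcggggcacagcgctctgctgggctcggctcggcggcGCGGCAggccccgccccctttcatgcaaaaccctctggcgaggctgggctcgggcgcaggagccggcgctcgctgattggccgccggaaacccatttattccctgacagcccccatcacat
Nanog (chr6:122707239-122707493): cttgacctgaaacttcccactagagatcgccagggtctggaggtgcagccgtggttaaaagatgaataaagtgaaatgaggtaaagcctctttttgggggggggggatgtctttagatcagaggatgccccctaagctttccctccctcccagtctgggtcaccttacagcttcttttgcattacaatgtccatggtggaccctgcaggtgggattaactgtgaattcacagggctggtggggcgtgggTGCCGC
Klf2 (chr8:72318812-72319032): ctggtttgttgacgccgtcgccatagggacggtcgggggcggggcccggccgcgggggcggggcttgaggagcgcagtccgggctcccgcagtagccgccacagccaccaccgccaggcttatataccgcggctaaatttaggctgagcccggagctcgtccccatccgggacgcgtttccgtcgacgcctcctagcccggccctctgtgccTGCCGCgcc
The motif begins 121 bases before the annotated start of Sox2, 38 bases before that of Klf2 and 1 base before the first start of Nanog. Of the 4 factors with the motif Tfcp2l1 rose, Klf2 fell, and Sox2 and Nanog were not called, at log2 fold changes of -0.04 and -0.11.

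A CACCC box, spelled CCACCC or GGGTGG on the other strand, was counted in the same windows. There were 4 copies in the first window of Pou5f1 and 0 in its second, 1 each in Klf2 and in both windows of Nanog and Esrrb, and 0 in Sox2, Klf4 and Tfcp2l1. The Pou5f1 stretch up to the first start in GENCODE, which lies before the RefSeq start, is printed as the window with the most copies, which are in capitals; 2 of them overlap.
Pou5f1 (chr17:35505782-35506018): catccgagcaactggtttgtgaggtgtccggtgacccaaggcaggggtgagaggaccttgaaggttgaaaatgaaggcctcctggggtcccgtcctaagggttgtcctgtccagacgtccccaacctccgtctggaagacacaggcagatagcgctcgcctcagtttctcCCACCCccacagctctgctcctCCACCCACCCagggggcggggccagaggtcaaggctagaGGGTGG
Of all windows 31.5% held at least 1 copy and 0.575% held 4 or more. A match is a description of the letters and not a bound site.

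Genes around the factors moved in both directions. Within 100 kb of a factor 21 tested genes were found, of which 4 rose and 6 fell (47.6%, against 41.1% of all genes). Dppa3, Gdf3 and Slc2a3 lie in the Nanog cluster on chromosome 6. Dppa3, 77218 bp from Nanog, fell by 2.30 on the log2 scale, while Gdf3 at 97402 bp and Slc2a3 at 13176 bp rose by 0.30 and 0.28. Relative to the chromosome 6 median of 0.17 these 3 were at -2.48, 0.12 and 0.11. Beside Prdm14, Ncoa2 at 11942 bp fell with it, by 0.38 (limma adjusted p = 0.00371). Tcf19, 1953 bp from Pou5f1, rose with it by 0.46 (limma adjusted p = 0.0166). The other called neighbours of Pou5f1, H2-Q10, H2-Q7 and H2-Q6, were lower, at log2 fold changes of -1.12, -1.09 and -1.12. Their WT means were only 0.47, 0.16 and 0.26 FPKM.

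The genes whose profile over the 5 libraries was most like that of the factor with the largest rise and of the one with the largest fall were sought among 10663 genes whose mean reached 1 FPKM, by the Euclidean distance of centred log2 values. For Klf4 these were Elf3 (distance 0.0892), an epithelial ETS factor, Ltbp4 (0.0899) and Sh3tc1 (0.0966), against a median distance of 0.860. Elf3 was at 19.03, 17.38 and 17.63 FPKM in WT and at 26.66 and 33.78 FPKM in KO, with the same higher value in KO 2. For Prdm14 they were Cecr2 (0.0264), Snx11 (0.0320) and Ppp2ca (0.0329), against a median of 0.560; Snx11 and Ppp2ca lie on chromosome 11. Cecr2 was at 9.69, 10.66 and 10.85 FPKM in WT and at 8.04 and 7.45 FPKM in KO. With 5 libraries and a shared contrast such likeness is a description of these profiles.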

How the data were processed

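RNA was measured in 3 WT and 2 ZFP57 KO libraries of C57BL/6J ES cells (total RNA, ribodepleted, ScriptSeq v2, 150 bp paired ends), grouped by the labels. The authors mapped to mm10 and deposited FPKM per gene with 2 decimals. The submitters' processing notes list FastQC 0.11.5, Trim Galore 0.2.7, BWA 0.6.2, Picard, MACS2 2.1.0 and STAR 2.5.2; the counter, annotation and strand setting are not given in the sources used here. The authors' ZFP57 peak lists hold positions only; peaks of the C57BL/6J list were those called in at least 2 WT replicates.

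FPKM were tested as log2(FPKM + 0.1) with limma 3.58.1 (R 4.3.3; lmFit, eBayes with trend) over genes whose mean reached 0.1 FPKM, Benjamini-Hochberg adjusted. The step was tested on simulated data of 14612 genes: of 200 changed genes 30.5% were recovered at a log2 change of 0.5, 66.5% at 1 and 88.0% at 2. In the data 6002 genes were called, so far fewer genes changed in the simulation. Its Benjamini-Hochberg cut-off was therefore stricter, and these shares are not the recovery in the comparison of KO with WT. Depth was inferred from microRNA genes, whose FPKM were whole multiples of 1 fragment (within 0.1) in 96.3 to 98.2% of values, against 20% by chance. Alternatives were other pseudocounts, filters, scalings and eBayes settings, the replicate block and leaving out each library. Positions, exon lengths and promoters came from RefSeq on GRCm38.p6, with first starts from GENCODE vM21.

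The factors and gene lists were chosen with earlier results of these data known. Named were all 10 factors, Zfp57, genes of the related lists called at 2-fold or more, Stat3, Lifr, Tcf7l1, Zfp42, Dppa3 and Fgf4, relatives at 5 FPKM or more, and the 3 genes most like Klf4 and Prdm14; other genes named were chosen after their values were seen.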

Additional observations from a re-analysis of the deposited data

How the results depend on the processing

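Klf4, Esrrb, Tfcp2l1 and Prdm14 kept their direction and call under all 15 alternative settings. The replicate numbers did not pair the libraries: the deviations of same-numbered WT and KO libraries correlated at -0.07 and -0.04. With the replicate block, which leaves out WT 3, Pou5f1 was at 0.257, Klf2 at -0.231, Klf5 at 0.354 and Tbx3 at 0.540 and none of these was called (limma adjusted p = 0.0675, 0.0592, 0.0555 and 0.0665); 4 factors (3 higher, 1 lower) and 3068 of all genes (1429 higher, 1639 lower) were called, as were 3 genes of the LIF list and 2 partner factors, and Stat3 was not (adjusted p = 0.0512). Nanog was called after quantile normalization (-0.154) and chromosome centring (-0.274) and under no other setting, its adjusted p ranging from 0.00252 to 0.338. Leaving out 1 library at a time gave -0.101 to 0.017 for Sox2, whose sign turned without KO 1, -0.327 to -0.231 for Klf2 and 0.387 to 0.764 for Tbx3, 6 to 8 factors called (5 to 6 higher, 1 to 2 lower) and 4146 to 4831 of all genes (1818 to 2175 higher, 2228 to 2656 lower), against 6002 (2749 and 3253) with all 5. At an adjusted p under 0.01, 5 factors were called, but the share of all genes at that threshold was not counted, so this count has no background. At 2-fold 0 factors were called, against 8.02% of all tested genes. No scaling moved the median log2 fold change of all genes by over 0.1. The block and leave-one-out fits hold fewer libraries; the cause of the other shifts was not tested.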
